A study of Bos taurus with 6 samples.

Results

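The miR-23/27/24 miRNAs of cultured bovine fat cells are described here, in 3 libraries of preadipocytes and 3 of adipocytes. They were chosen by name. Every known miRNA row whose name, without species prefix and arm, is 23a, 23b, 27a, 27b or 24 was taken, which gave 8 of the 879 known and predicted miRNA rows (2213 rows in the whole table). These are bta-miR-23a, bta-miR-23b-3p, bta-miR-23b-5p, bta-miR-24, bta-miR-24-3p, bta-miR-27a-3p, bta-miR-27a-5p and bta-miR-27b. The table gives the type mature to miR-23b-3p, miR-23b-5p and miR-24 and the type hairpin to the others. Whether reads were counted alike for both types is not given in the sources used here. All 8 passed the filter on low counts, which left 414 miRNAs for testing. The species prefix bta- is mostly left out below.

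In mammals these miRNAs are cut from a pair of duplicated clusters. A single primary transcript of each cluster carries a miR-23, a miR-27 and a miR-24 hairpin, so the products of a cluster start at the same molar amount and can differ later through processing or turnover. The mature miR-24-3p made by both clusters is the same, whereas miR-23a and miR-23b-3p, and miR-27a-3p and miR-27b, are near-identical pairs. In RefSeq's gene table (assembly ARS-UCD2.0), MIR23A, MIR27A and MIR24-2 follow each other within the span of LOC132345691, which is listed as protein-coding. The nearest protein-coding genes that do not span them are NANOS3 and ZSWIM4. MIR23B, MIR27B and MIR24-1 follow each other within the span of AOPEP, an aminopeptidase gene. In fat cells miR-27 is best known for restraining differentiation, with PPARG, the master regulator of adipocyte genes, among its targets. miR-24 is known for acting on cell cycle genes, and miR-23 for acting on glutaminase.

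The cells were of Holstein cattle, from adipose tissue, at passage 4 to 6, grown in F12/DMEM with 10% serum and 1% antibiotics. The growth protocol, which is the same text for all 6 samples, says that preadipocytes were brought to differentiate with IBMX, rosiglitazone, dexamethasone and insulin; the cell type label alone separates the groups, and the length of the treatment is not given in the sources used here. Adipocyte marker mRNAs were not measured in these small RNA libraries. The labels do not state whether the 3 samples of a group are separate animals, so every p-value reflects only how these samples spread, which may be technical variation. The tables held 14525284 to 22283754 miRNA reads per library, and 3 reads corresponded to 0.142 to 0.244 CPM. CPM are counts-per-million of miRNA reads after scaling with edgeR's TMM factors. These factors were 1.02 to 1.40 in the adipocyte libraries and 0.734 to 0.846 in the preadipocyte libraries, so levels set between the groups depend on them. Exon, intron, intergenic and repeat reads took 18.5%, 18.9% and 5.29% of the table in preadipocyte replicates 1, 2 and 3 and 8.21% to 12% in the adipocyte libraries. Preadipocyte replicate 1 and adipocyte replicate 2 stood apart in how miR-27 reads were named, as described below. Differences are log2 of adipocytes over preadipocytes, tested with edgeR's quasi-likelihood test over all 414 miRNAs, with p adjusted after Benjamini-Hochberg (BH) and called below 0.05.

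Of the 8 members, miR-24-3p fell in adipocytes and the other 7 did not pass the threshold. Over all miRNAs tested, 6.28% passed in either direction and 2.42% as lower. The level of bta-miR-24-3p was 2813, 1805 and 3027 CPM in adipocyte replicates 1, 2 and 3. It was 10435, 7514 and 8268 CPM in preadipocyte replicates 1, 2 and 3. The highest adipocyte library therefore lay well below the lowest preadipocyte library, and this held without TMM factors too, at 2523 to 3774 against 6072 to 8754 unscaled CPM. The means were 2548 ± 653 and 8739 ± 1517 CPM (SD, n = 3 each), a log2 difference of -1.78 (SE 0.28, 95% interval -2.45 to -1.11, adjusted p = 0.0242 in edgeR), or 3.43-fold lower in adipocytes. In bulk samples such as these, fewer cells of a type and less RNA per cell cannot be told apart. Leaving out adipocyte replicate 1, adipocyte replicate 2, preadipocyte replicate 1 or preadipocyte replicate 2 ended the call, with log2 differences of -1.86, -1.57, -1.64 and -1.89 and adjusted p in edgeR of 0.14, 0.101, 0.0772 and 0.0649. Without these libraries the estimates kept their direction and most of their size, while the test over all miRNAs called 1 to 4 miRNAs where it had called 26.

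**Figure D1:**
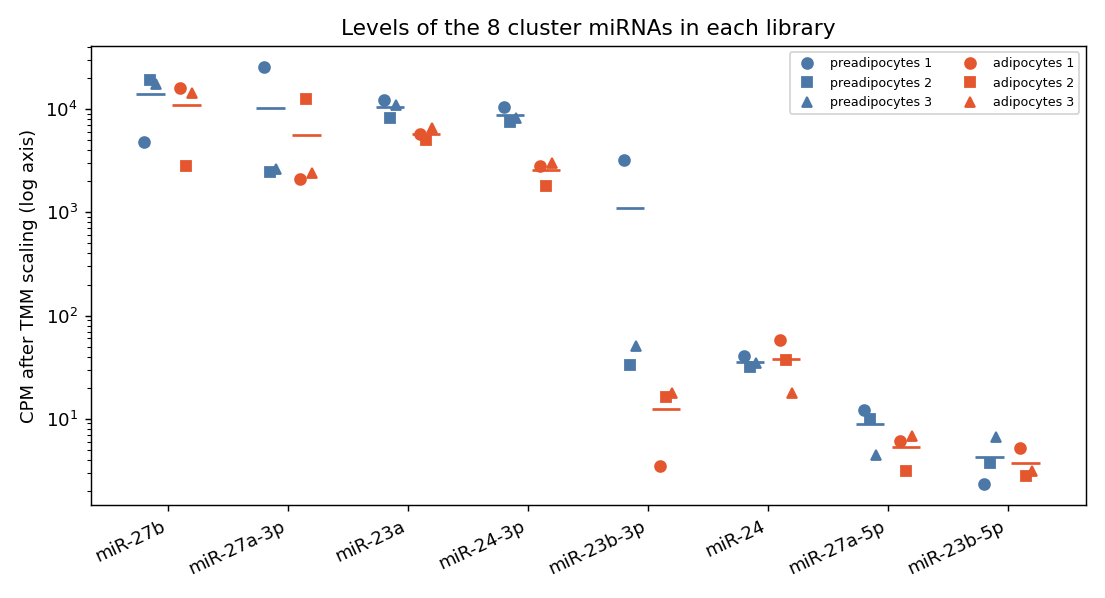
Level of each of the 8 cluster miRNAs in CPM after TMM scaling (log axis), with a point for each library and a line at the mean of each group (n = 3). The adipocyte libraries of miR-24-3p (1805 to 3027 CPM) lie below all preadipocyte libraries (7514 to 10435 CPM), while miR-27a-3p and miR-27b each have 1 library per group far from the other 2.

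The miR-23 products had negative estimates that did not pass. The level of bta-miR-23a was 5766, 5079 and 6596 CPM in adipocyte replicates 1, 2 and 3. It was 12385, 8146 and 10935 CPM in preadipocyte replicates 1, 2 and 3. The groups did not overlap on this scale, at a log2 difference of -0.85 (SE 0.24, adjusted p = 0.0645 in edgeR), but they overlapped without TMM factors, where preadipocyte replicate 2 (6886 unscaled CPM) lay below adipocyte replicate 1 (7736 unscaled CPM). Far fewer reads carried the name bta-miR-23b-3p, whose row is of type mature where that of miR-23a is of type hairpin. Adipocyte replicates 1, 2 and 3 had 70, 345 and 349 of them, and preadipocyte replicates 1, 2 and 3 had 47481, 404 and 830. A single library, preadipocyte replicate 1, held nearly all of them. The log2 difference of miR-23b-3p was -6.47 (SE 2.06, adjusted p = 0.0856 in edgeR) with that library and -1.74 (SE 0.73, adjusted p = 0.209 in edgeR) without it.

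On the TMM scale 3 of the 8 members (miR-23a, miR-23b-3p and miR-24-3p) had groups that did not overlap, all lower in adipocytes, where 20.5% of all tested miRNAs did so in that direction. Without TMM factors it was 2 of 8 (miR-23b-3p and miR-24-3p), against 7.97% of all. The median log2 difference of the 8 members was -0.78 and that of all 414 was -0.02, with 7 of 8 and 207 of 414 estimates below 0.

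Because the counting can divide the reads of near-identical miRNAs, the miR-23 pair was also summed and tested in the whole table. The miR-23 sum was 5769, 5148 and 6643 CPM in adipocyte replicates 1, 2 and 3 and 15235, 8220 and 11052 CPM in preadipocyte replicates 1, 2 and 3. In that fit 2.43% of 412 miRNAs passed as lower, miR-24-3p among them (-1.76, adjusted p = 0.0214 in edgeR). The log2 difference of the miR-23 sum was -0.97 (SE 0.27, 95% interval -1.62 to -0.33, adjusted p = 0.0632 in edgeR), which missed the threshold. The adjusted p fell below it with upper-quartile factors (-1.27), a minimum of 10 CPM (-1.23), known miRNAs alone (-1.05), DESeq2 (-1.02) and without preadipocyte replicate 3 (-1.05). Each of these settings called more miRNAs over the whole table as well. Before summing, they called 49 of 414, 36 of 209, 59 of 365, 97 of 414 and 148 of 465, where the main fit called 26 of 414. With library totals alone the difference was -0.38 (adjusted p = 0.343 in edgeR).

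The names miR-27a-3p and miR-27b traded places between libraries. In adipocyte replicates 1, 2 and 3 bta-miR-27a-3p had 42274, 263217 and 47219 reads, and bta-miR-27b had 324871, 58854 and 281606. In preadipocyte replicates 1, 2 and 3 miR-27a-3p had 377035, 30386 and 43183 reads, and miR-27b had 70444, 235287 and 290454. Thus miR-27a-3p took 81.7% and 84.3% of the miR-27 reads in adipocyte replicate 2 and preadipocyte replicate 1, and 11.4% to 14.4% in the other 4 libraries. Each of these shares has a 95% Wilson interval at most 0.332 percentage points wide, which covers counting error only. The switch was seen in 1 library of each group, and its cause was not tested. In the same preadipocyte library 20.8% of the miR-23 reads were named miR-23b-3p, against 0.0601% to 0.462% in the other 5, but adipocyte replicate 2, at 0.321%, showed no such excess.

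Compared separately, neither miR-27 name passed. The log2 difference was -0.86 (SE 1.13) for miR-27a-3p and -0.33 (SE 0.74) for miR-27b, with adjusted p in edgeR of 0.598 and 0.761. Summed, the spread was much smaller: the SD of log2 CPM over the 6 libraries was 1.54 for miR-27a-3p, 1.17 for miR-27b and 0.34 for the sum. The miR-27 sum was 18198, 15405 and 16889 CPM in adipocyte replicates 1, 2 and 3 and 29811, 21748 and 20509 CPM in preadipocyte replicates 1, 2 and 3. The groups lay apart on this scale, with a log2 difference of -0.51 (SE 0.21, adjusted p = 0.129 in edgeR) that did not pass. The direction depended on the scaling, at 0.0945 (adjusted p = 0.808 in edgeR) with library totals alone and 0.0547 with limma on the deposited TPM. Without the libraries rich in miR-27a-3p names (adipocyte replicate 2 and preadipocyte replicate 1, a choice made after seeing the data) the log2 differences were -0.28 for the miR-27 sum, -0.64 for the miR-23 sum and -1.44 for miR-24-3p, and none passed (adjusted p = 0.507 in edgeR, 0.322 and 0.172).

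**Figure D2:**
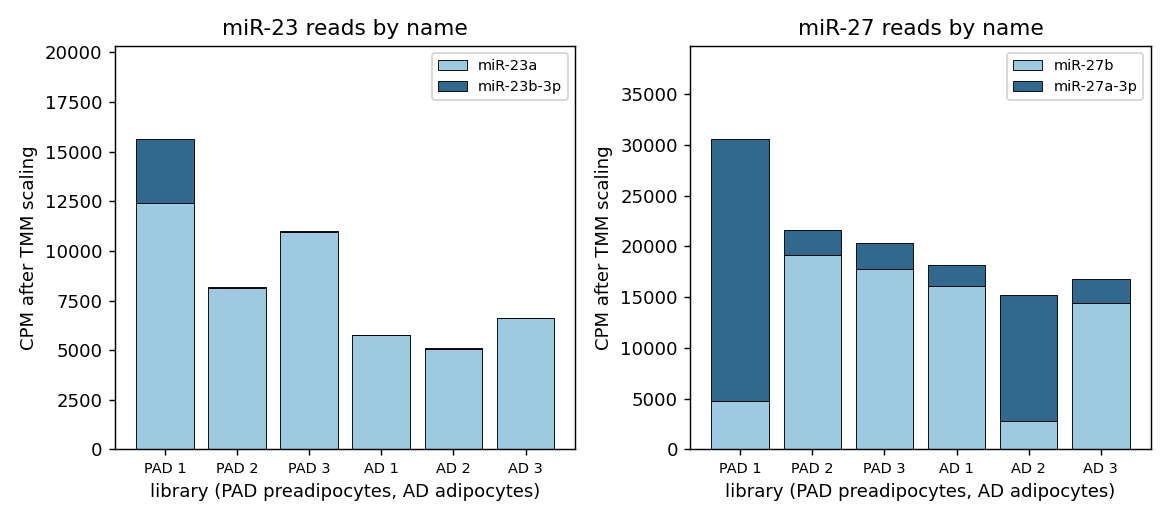
Levels in CPM after TMM scaling by library, from 0, stacked by the name that the reads carry: miR-23a and miR-23b-3p on the left, miR-27b and miR-27a-3p on the right. The stacks use the factors of the table before summing. Most miR-27 reads are named miR-27a-3p in preadipocyte replicate 1 (84.3%) and adipocyte replicate 2 (81.7%) and miR-27b elsewhere.

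The other 3 members were scarce. The row named miR-24, whose arm the table does not give, had 1167, 783 and 347 reads in adipocyte replicates 1, 2 and 3. Preadipocyte replicates 1, 2 and 3 had 598, 391 and 565 such reads. Its levels overlapped (17.7 to 57.8 and 31.8 to 40.9 CPM), and its log2 difference was 0.07 (SE 0.46, adjusted p = 0.906 in edgeR), with a sign that changed under several settings. Set against miR-24-3p within the same library, the reads of miR-24 amounted to 2.06%, 2.05% and 0.586% in adipocyte replicates 1, 2 and 3 and 0.392% to 0.424% in the preadipocyte libraries. All adipocyte libraries lay higher, adipocyte replicate 3 by the least. The log2 of this ratio, chosen after its values were seen, differed by 1.72 (exact two-sided permutation p = 0.1, below which 3 libraries a group cannot go). The 5p arms, which are mostly discarded when the 3p arm is loaded, were at 3.12 to 6.85 and 4.46 to 12 CPM for miR-27a-5p and at 2.79 to 5.2 and 2.32 to 6.66 CPM for miR-23b-5p, adipocytes first. Their log2 differences were -0.71 (SE 0.48) and -0.20 (SE 0.47), with adjusted p in edgeR of 0.31 and 0.767. These 2 rows had 34 to 176 reads per library.

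Ratios within a library need no scaling factor. In all 6 libraries the order of read counts was the miR-27 sum, then the miR-23 sum, then miR-24-3p. The log2 ratio of miR-24-3p to the miR-23 sum was -1.04, -1.50 and -1.13 in adipocyte replicates 1, 2 and 3 and -0.58, -0.12 and -0.41 in preadipocyte replicates 1, 2 and 3. In preadipocytes the read count of miR-24-3p thus came close to that of the miR-23 sum, and in every adipocyte library it was further below. These are ratios of reads, and molar amounts were not measured. The difference was -0.85, with group means of -1.22 ± 0.24 and -0.37 ± 0.23 (SD, n = 3 each, exact two-sided permutation p = 0.1, BH-adjusted over the 3 ratios 0.15, the smallest p the design allows being 0.1).

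Against the miR-27 sum the log2 ratio of miR-24-3p was -2.69, -3.08 and -2.47 in adipocyte replicates 1, 2 and 3 and -1.55, -1.53 and -1.30 in preadipocyte replicates 1, 2 and 3. This was the wider gap, with a difference of -1.29 between group means of -2.75 ± 0.31 and -1.46 ± 0.14 (SD, n = 3 each, exact two-sided permutation p = 0.1, BH-adjusted 0.15). The log2 ratio of the miR-27 sum to the miR-23 sum was 1.53 ± 0.16 in adipocytes and 1.09 ± 0.28 in preadipocytes and the groups overlapped (difference 0.44, exact two-sided permutation p = 0.2, BH-adjusted 0.2, n = 3 each). In a test added after seeing the data, edgeR was fitted over all miRNAs with each library scaled by its miR-23 sum or its miR-27 sum in place of TMM factors. Relative to the miR-23 sum miR-24-3p differed by -0.85 (SE 0.26, adjusted p = 0.049 in edgeR), and relative to the miR-27 sum by -1.27 (SE 0.23, adjusted p = 0.0265 in edgeR). These fits test the same ratios again and take the scaling sum as exact, so they are no separate support. The share of all miRNAs passing under these scalings is not given here.

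**Figure D3:**
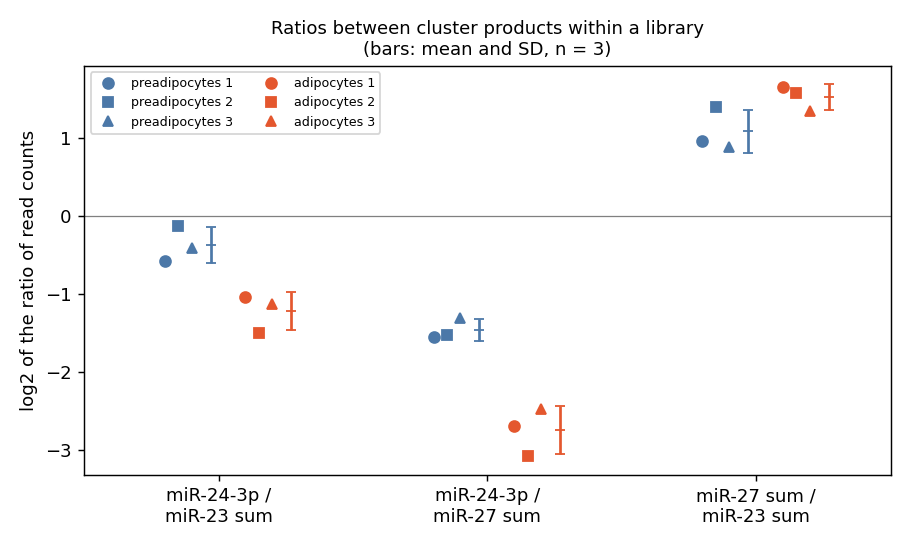
Log2 ratios of read counts between cluster products within each library, with the mean and SD of each group (n = 3) beside the points. Both ratios of miR-24-3p lie lower in every adipocyte library than in any preadipocyte library, while the ratio of the miR-27 sum to the miR-23 sum overlaps.

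The makeup of the clusters' reads showed the same shift. Names of miR-24 took 8.3% to 11.5% of the reads of the 8 members in adipocytes and 18.5% to 20.9% in preadipocytes. Those of miR-27 took 63.5% to 68.7% and 51.4% to 57.9%, and those of miR-23 took 21.5% to 25% and 21.9% to 27.7% (95% Wilson intervals at most 0.286 percentage points wide). The miR-24 and miR-27 shares did not overlap between the groups and the miR-23 shares did. Since these shares divide the same reads, a lower miR-24 share raises the others, and they restate the ratios above. The intervals cover counting error only. All 8 members together made up 3.60%, 3.10% and 2.71% of the miRNA reads in adipocyte replicates 1, 2 and 3 and 4.76%, 3.16% and 2.91% in preadipocyte replicates 1, 2 and 3. These shares overlapped (3.14% ± 0.448 and 3.61% ± 1, SD, n = 3 each, exact two-sided permutation p = 0.6). The denominator mattered: miR-21-5p alone took 64% to 74.1% of the miRNA reads in adipocytes and 77.9% to 80.2% in preadipocytes. With it left out, the clusters took 9.27% to 10.4% in adipocytes and 14.7% to 21.6% in preadipocytes, which did not overlap (exact two-sided permutation p = 0.1).

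**Figure D4:**
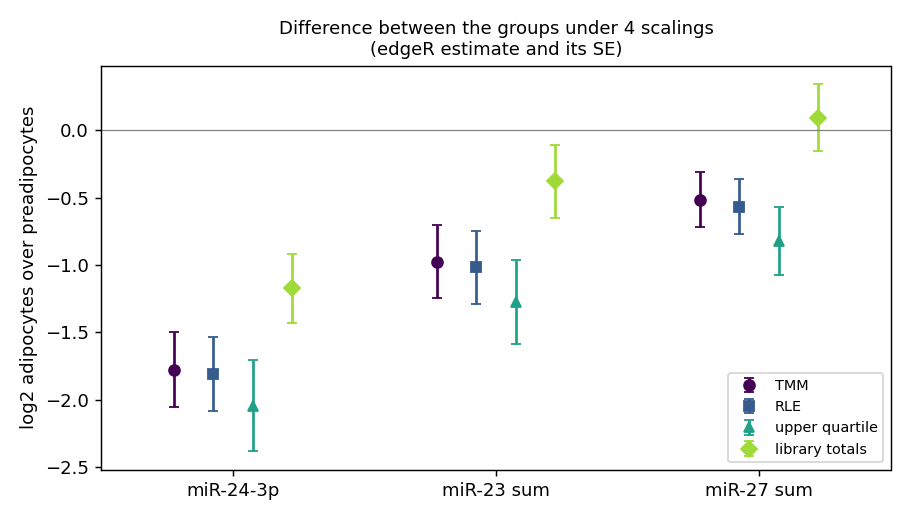
Log2 difference between the groups (adipocytes over preadipocytes) under 4 scalings of the libraries, as edgeR's estimate with its SE, for miR-24-3p, the miR-23 sum and the miR-27 sum. The estimates of miR-24-3p run from -2.05 to -1.17 and stay below 0, whereas the miR-27 sum is at 0.0945 with library totals.

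A scaling factor shifts all miRNAs of a library by about the same amount, so the order of the products is largely fixed by construction and says nothing about stability. With library totals alone miR-24-3p differed by -1.17 (adjusted p = 0.0268 in edgeR), and the median over all miRNAs moved from -0.02 to 0.62. With upper-quartile factors it differed by -2.05 (adjusted p = 0.0253 in edgeR) and that median was -0.31.

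The table also holds Rfam rows for the mir-23, mir-24 and mir-27 precursor families, and whether these share reads with the miRNA rows is not given in the sources used here. In deposited TPM, which here carry no division by length, the mir-24 row was at 464, 343 and 362 in adipocyte replicates 1, 2 and 3 and 604, 508 and 507 in preadipocyte replicates 1, 2 and 3. It was lower in all adipocyte libraries (exact two-sided permutation p = 0.1). The mir-23 and mir-27 rows overlapped, at 2729 ± 155 and 2391 ± 464 and at 6738 ± 1263 and 5020 ± 979 TPM (adipocytes first, SD, n = 3 each, exact two-sided permutation p = 0.3 and 0.2). Within libraries, the log2 ratio of the mir-24 row to the mir-23 row was -2.82 ± 0.19 in adipocytes and -2.13 ± 0.21 in preadipocytes, and to the mir-27 row -4.11 ± 0.16 and -3.20 ± 0.14 (exact two-sided permutation p = 0.1 for both, n = 3 each). Relative to the miRNA rows of the same family, the Rfam rows were larger in adipocytes for all 3 families. They amounted to 58.7% ± 3.26 against 39.1% ± 5.14 for mir-23, 19.2% ± 2.12 against 11.4% ± 0.874 for mir-24 and 49.8% ± 2.40 against 38.5% ± 1.35 for mir-27, with no overlap between the groups. Of the 45 families with enough reads in both kinds of row, 31.1% did so in that direction. With the Rfam reads added to the miRNA reads, miR-24-3p differed by -1.67 (adjusted p = 0.0214 in edgeR), the miR-23 sum by -0.78 and the miR-27 sum by -0.40.

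Among the 195 known miRNAs with a mean of at least 10 CPM, those whose log2 CPM followed miR-24-3p most closely over the 6 libraries were miR-484 (Pearson r = 0.98), miR-181c (0.97), miR-1249 (0.96), miR-423-3p (0.94) and miR-342 (0.92). These correlations are descriptions; they share libraries and scaling and include the difference between the groups. The 3 closest, miR-484, miR-181c and miR-1249, were also among the 5 closest to the miR-23 sum (0.96, 0.96 and 0.84, with miR-145 at 0.89 and miR-3604 at 0.83) and to the miR-27 sum (0.91, 0.84 and 0.87, with miR-1296 at 0.89 and miR-197 at 0.84). In the RefSeq gene order MIR181C and MIR181D are the nearest miRNA genes on the NANOS3 side of the MIR23A cluster. Of these miR-181c stood at 23.8 ± 3.82 CPM in adipocytes against 71.4 ± 20 CPM in preadipocytes, which differ by -1.58 (log2, SE 0.35, adjusted p = 0.0481 in edgeR). That call was lost with any single library other than preadipocyte replicate 3 left out (-1.87 to -1.45), with library totals alone (-0.95), without a low-count filter (-1.48), with a replicate block (-1.55), with limma on the deposited TPM (-0.95) and without the 2 libraries rich in miR-27a-3p names (-1.34). Its neighbour miR-181d was at 19.6 ± 0.817 and 26.2 ± 4.36 CPM (-0.42, SE 0.28, adjusted p = 0.31 in edgeR, and 0.23 with library totals alone), which did not pass.

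Other miRNAs described as acting on fat cell differentiation were counted beside the clusters. Of 26 tested miRNAs described as restraining it, the cluster members left out, 0 passed edgeR's test, 5 had an unadjusted p below 0.05 and DESeq2 called 3 (1 higher, 2 lower). Over all 414 miRNAs 34.1% had an unadjusted edgeR p below 0.05 and DESeq2 called 23.4%. The median log2 difference of the 26 was 0.26, with 18 of 26 positive, against -0.02 and 207 of 414 over all miRNAs. The most abundant were let-7i, at 36130 ± 4768 and 46811 ± 10722 CPM, and let-7a-5p, at 20207 ± 2969 and 13892 ± 3578 CPM. Of 29 described as promoting it, 2 were higher by edgeR (miR-148a, with a log2 difference of 1.68, and miR-199a-3p, with 8.70) and 0 were lower. An unadjusted p below 0.05 was found for 9, and DESeq2 called 5 higher and 3 lower. The value of miR-199a-3p is taken as uncertain. Its gene overlaps that of miR-3604, whose log2 difference in the same fit was -6.87, and the part of this overlap in either value was not tested. Over all 414 miRNAs edgeR called 3.86% higher, and the shares with an unadjusted p below 0.05 or a DESeq2 call among the 29 lay near those over all miRNAs given above. The median of the 29 was 0.47, with 19 positive and 10 negative, so both lists leaned the same way against the -0.02 and 207 of 414 over all miRNAs. The call of miR-148a was also lost with any single library other than preadipocyte replicate 3 left out (1.44 to 1.86), with a replicate block (1.71), with the share of genome-feature reads as a covariate (1.64) and without the 2 libraries rich in miR-27a-3p names (1.86). The most abundant of these, miR-21-5p and miR-143, did not pass (adjusted p = 0.0637 in edgeR and 0.434).

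The miR-23/27/24 miRNAs are also abundant in endothelial cells, and the endothelial miR-126-3p lay lower in all adipocyte libraries, as miR-24-3p did, without passing the test. The level of miR-126-3p was 66.8, 42.2 and 42.8 CPM in adipocyte replicates 1, 2 and 3 and 112, 137 and 446 CPM in preadipocyte replicates 1, 2 and 3 (log2 difference -2.20, SE 0.60, adjusted p = 0.0637 in edgeR). The groups did not overlap, and the highest value was in preadipocyte replicate 3. Without that library the log2 difference of miR-126-3p was -1.32, which passed (adjusted p = 0.0352 in edgeR) in a fit that called 148 of 465 miRNAs. It also passed with DESeq2, upper-quartile factors, a minimum of 10 CPM, known miRNAs alone and the covariate. Over all miRNAs these settings called 97 of 414, 49 of 414, 36 of 209, 59 of 365 and 32 of 414, where the main fit called 26 of 414. The groups of miR-126-5p overlapped, with a log2 difference of -1.88 (adjusted p = 0.189 in edgeR) that was -0.05 without preadipocyte replicate 3 and passed with the covariate at -2.02. Both miR-126 arms summed to 43 to 67.9 CPM in adipocytes and 114 to 455 CPM in preadipocytes, with neither arm at 0, and their part in the result was not tested. The 5 epithelial markers of the miR-200 family summed to at most 1.06 CPM and the 4 blood markers to at most 4.56 CPM in any library, the latter at 0.331 to 1.02 CPM in adipocytes and 1.89 to 4.56 CPM in preadipocytes. Only 1 blood marker was tested, miR-451, at a mean of 1.83 CPM. Its log2 difference was -2.33 (SE 0.64, adjusted p = 0.0637 in edgeR), which did not pass, while DESeq2 called it lower. The part of blood markers in the result was not tested. The 4 muscle markers summed to 20.6 to 25.8 and 21.3 to 52.9 CPM. Of the 2 that were tested, miR-1 did not pass (log2 difference -0.29, adjusted p = 0.693 in edgeR), and miR-133a was lower in adipocytes, as miR-24-3p was. The level of miR-133a was 1.24, 1.75 and 1.89 CPM in adipocyte replicates 1, 2 and 3 and 6.70, 4.32 and 6.97 CPM in preadipocyte replicates 1, 2 and 3, with no overlap (log2 difference -1.88, SE 0.34, adjusted p = 0.0293 in edgeR). That call was lost without a low-count filter (-1.78), with a replicate block (-1.87), with any single library other than preadipocyte replicate 3 left out (-2.17 to -1.72) and without the 2 libraries rich in miR-27a-3p names (-1.85), and the part of muscle markers in the result was not tested. The 5 mesenchymal markers summed to 30519 to 40833 and 27162 to 46469 CPM, and they did not move together. Estimates were negative for 3 and positive for 2 of them. In edgeR 1 of the 5 passed, miR-199a-3p, higher in adipocytes, with the uncertain value given above. DESeq2 called 1 higher and 1 lower. The lower was miR-145, with a log2 difference of -1.64 (adjusted p = 0.0637) in edgeR and -1.68 (adjusted p = 0.00299) in DESeq2.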

How the data were processed

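Per the labels' protocols, RNA of 18 to 30 nt was sequenced from 3 adipocyte and 3 preadipocyte samples. The submitters' processing notes list Bowtie2 without a version. How reads matching more than a single miRNA were assigned, the genome build and the miRNA release are not given in the sources used here. Per the file headers, the authors deposited a count and a TPM per row and library. The counts are whole reads, not normalized. The deposited TPM are the count divided by a constant for each library, with no division by length, and 0 is written as 0.001.

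Columns were matched to samples by title. Counts of all known and predicted miRNAs were tested with edgeR 4.0.16 in R 4.3.3 (filterByExpr, TMM, glmQLFit, glmQLFTest, two-sided, group as the only term, BH adjustment). The exon, intron, intergenic and repeat rows, which name no gene, took 5.29% to 18.9% of the table and stayed out of library sizes, as did Rfam and piRNA rows. The miR-23 and miR-27 pairs were then summed and the whole table refitted. Intervals are the estimate plus or minus the t quantile of edgeR's total degrees of freedom times the SE. Ratios and shares were compared with exact permutation tests. Alternatives were DESeq2 1.42.0, limma 3.58.1 on log2(TPM + 1), other scalings, filters, a replicate block and leaving out libraries. On data simulated from these means and library sizes, for the adipocyte against preadipocyte comparison over 391 miRNAs, the edgeR step found 14.9% of the changes of 2-fold, 61.2% of those of 4-fold and 97.9% of those of 8-fold, with 2 calls among 198 miRNAs left unchanged. The simulation used the trended dispersion and changes that alternated up and down, and no difference in TMM factors was built in. These rates need not hold for the real libraries or for rows as spread as the miR-27 names. Plots were drawn with matplotlib 3.10.9.

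Named miRNAs are all 8 members, their sums, other rows of these families, the 5 miRNAs most alike in pattern and the 2 most abundant of each list. After their values were seen, miR-126, miR-181d, miR-451, the muscle markers and the list members past the threshold were also named. The members and lists were chosen with earlier results of these data known. Coordinates are not printed, since no build is given for the table; RefSeq's ARS-UCD2.0 table was used for gene names and order only, where all 6 cluster genes matched.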

Additional observations from a re-analysis of the deposited data

How the results depend on the processing

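The 1 member past the threshold became 2 with upper-quartile factors, a minimum of 10 CPM or DESeq2 (miR-23a was added each time). Over all miRNAs these settings called 49 of 414, 36 of 209 and 97 of 414, where the main fit called 26 of 414. With the minimum of 10 CPM only 6 members were tested. The count of members was 0 without the 2 libraries rich in miR-27a-3p names, where 1 of 417 miRNAs passed. Leaving out 1 library gave 0 to 2 members. The 2 came without preadipocyte replicate 3, where 148 of 465 miRNAs passed. Over all miRNAs the count of 26 ran from 1 to 148 under the settings tried. The log2 difference of miR-24-3p was -2.13 to -1.57 with 1 library left out and -1.44 without those 2 libraries, where it lost its call; its direction held under all settings tried. The miR-23 sum passed at -1.27 (upper-quartile factors), -1.23 (minimum of 10 CPM), -1.05 (known miRNAs alone) and -1.02 (DESeq2), settings that also called more miRNAs over the whole table. It ran from -1.26 to -0.78 with 1 library left out. The miR-27 sum turned positive with library totals alone (0.0945) and limma on TPM (0.0547). With a replicate block 0 members passed, and miR-24-3p was at -1.80 (adjusted p = 0.0972 in edgeR); the count over all miRNAs was 1. The labels give same-numbered libraries nothing in common but the number. Their deviations from the group means correlated at 0.0365, -0.308 and 0.0216, and no library correlated best with its own number. So few libraries cannot settle whether the samples were paired. The share of the clusters differed by -0.473 percentage points and by -7.16 with miR-21-5p out of the denominator, and the sign turned without preadipocyte replicate 1 (0.101). The ratio of miR-24-3p to the miR-27 sum differed by -0.90 in the Rfam rows.

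Signs also turned for miRNAs that did not pass. miR-24 was at -0.26 (upper-quartile factors), -0.16 (minimum of 10 CPM), -0.0733 (replicate block) and -0.39 to 0.20 with 1 library left out. With library totals alone and limma on TPM, miR-23b-5p was at 0.49 and 0.30, miR-27b at 0.27 and 0.12, miR-181d at 0.23 and 0.15, let-7i at 0.24 and 0.21 and miR-143 at 0.32 and 0.26. miR-27a-3p was at 0.0931 with limma on TPM and 0.0926 with the share of genome-feature reads as a covariate. With 1 library left out, miR-23b-5p ran from -0.55 to 0.27, miR-27b from -0.81 to 0.11 and miR-27a-3p from -2.14 to 1.14. The covariate, the Rfam settings, the scaling by a cluster product and the removal of 2 libraries were chosen after seeing the data. The cause of these changes was not tested. The rows of miR-27a-5p and miR-23b-5p had at most 176 reads a library.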
